A study of Mus musculus with 12 samples.

Results

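The genes described here are 9 transcription factors that set neuronal fate in the forebrain: Neurog2, Neurod1, Neurod2, Neurod6, Eomes, Tbr1, Dlx1, Dlx2 and Insm1. They were taken by gene symbol from the deposited table, which holds 55421 named entries, and all 9 symbols matched 1 entry each. RNA sequencing covered 12 libraries of brain cells from C57BL/6 mice, 3 in each of 4 groups. AST are astrocytes at 0 days of incubation, the negative control of the design, and A-iSC are the cells obtained from astrocytes after 5 days of incubation in spheres. P56-NSC and P0-NSC are progenitor cells taken from the brain as positive controls. The names P56 and P0 are those of postnatal days in mouse work, although the labels do not spell them out. The title of the series speaks of retinas from wild type and Nrl-/- mice, which matches neither its design text nor the sample labels, and the latter were followed. The labels name no genotype, transgene or added agent for any group, and brain region, sex, culture passage and pooling of animals are not given in the sources used here. Since the labels call the 3 libraries of each group replicates without naming cultures or mice, the p-values here reflect the scatter among libraries alone, and that scatter may be technical.

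Proneural factors of the basic helix-loop-helix (bHLH) class bind E-box sequences as partners of E proteins and commit dividing progenitors to the neuronal fate. In the developing cortex Neurog2 acts in radial glia, Eomes marks the intermediate progenitors they give rise to, and Neurod1, Neurod2, Neurod6 and Tbr1 follow in young glutamatergic neurons. The homeodomain factors Dlx1 and Dlx2 act in the ventral forebrain and specify GABAergic interneurons, and the zinc finger factor Insm1 acts in progenitors that leave the cell cycle on either path. Notch effectors of the Hes family and Id proteins hold proneural factors in check.

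Levels are in FPKM, read counts scaled for gene length and a total for each library, so that levels of different genes can roughly be set side by side. Deviations of single libraries from their group mean still followed gene length in part (Spearman's rho -0.45 to 0.39). Ratios between genes of unlike length, such as that of Dlx1 to Dlx2 below, carry this limit. Depth ran from 17077780 to 24452419 reads per library. The totals implied by the FPKM values differed from this and ran from 16050789 to 29114241, so that a single read on a gene 1 kb long gave 0.0343 to 0.0623 FPKM. Implied totals lay below the counted reads in AST and P56-NSC, most so in P56-NSC, and above them in A-iSC and P0-NSC. Scaled by counted reads, levels in P56-NSC would be lower beside those of the other groups. Within their groups AST 2 and A-iSC 3 stood apart from the other libraries (chi-square per degree of freedom 43.5 to 105, against 2.63 between AST 1 and AST 3 and 13.4 between A-iSC 1 and A-iSC 2). Leaving both out kept the number of members called in each of the 6 comparisons. For A-iSC against AST that check leaves AST 1 and AST 3 beside A-iSC 1 and A-iSC 2. The deviations of these libraries from their group means ran in opposite directions (correlations -0.40 to -0.24), while A-iSC 3 went with AST 1 and AST 3 (0.41 and 0.44). The check therefore cannot separate this shared difference between libraries from the difference between the groups. All 5 astrocyte markers (Gfap, Aqp4, S100b, Aldh1l1 and Slc1a2) and all 8 stem and progenitor markers had group means of 1 FPKM or more in every group. The stem and progenitor markers summed to 2629 to 3596 FPKM in AST, 1776 to 2168 in A-iSC, 967 to 1065 in P0-NSC and 647 to 678 in P56-NSC. Nes, Sox2, Prom1, Fabp7 and Vim were lower in P56-NSC than in AST, and Hopx, Slc1a3 and Msi1 higher. Vim was the largest term in AST (2186 ± 466 FPKM, against 41.4 ± 5.32 in P56-NSC). The astrocyte markers summed to 86.8 to 97.9 FPKM in AST, 819 to 1739 in A-iSC, 1283 to 1354 in P56-NSC and 88.9 to 128 in P0-NSC. Gfap made most of the sum in A-iSC (970 ± 448 FPKM, against 29.9 ± 2.30 in AST) but not in P56-NSC (211 ± 15.4 FPKM). The summed level of 6 neuroblast markers (Dcx, Stmn2, Tubb3, Elavl4, Sox11 and Cd24a) was 1099 to 1358 FPKM in P0-NSC and 144 to 218 FPKM in the other libraries, with none of the 6 at 0 in any group. That of 7 neuron markers was 193 to 235 FPKM in P56-NSC, 93.5 to 114 in P0-NSC, 54.3 to 59.9 in AST and 18.8 to 24.3 in A-iSC, with none at 0. Thy1 made most of the sum in AST (48.8 ± 3.58 FPKM, against 8.62 ± 1.77 in A-iSC), and the order of AST and A-iSC rests on it. Map2, Syp and Snap25 were called higher in A-iSC than in AST, Thy1 and Nefl lower, and Syt1 and Rbfox3 were not called. The 5 oligodendrocyte lineage markers summed to 7693 to 8767 FPKM in P56-NSC, 23.9 to 25.7 in A-iSC, 15.9 to 19.8 in P0-NSC and 1.08 to 1.51 in AST. Those of 4 red blood cell genes were 323 to 503 FPKM in P56-NSC and 146 to 298 FPKM in P0-NSC. They were at most 0.473 FPKM in AST and A-iSC, where Hbb-bt was at 0. The 6 microglia markers summed to 2049 to 2533 FPKM in A-iSC, 544 to 596 in P56-NSC, 161 to 205 in AST and 80.4 to 95.9 in P0-NSC, with none at 0. The 4 endothelial markers summed to 66.8 to 67.4 FPKM in P0-NSC and at most 3.59 FPKM elsewhere, with Cldn5 at 0 in AST. From a longer endothelial list, 8 of 8 genes were called higher in P0-NSC than in each other group. Among all genes tested, 35.9% were called higher in P0-NSC than in AST, 34.7% than in A-iSC and 33.9% than in P56-NSC. The part of these other cells in the results below was not tested. In such bulk samples fewer cells of a type and less RNA per cell cannot be told apart.

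The members showed 3 patterns. Neurod1, Neurod2, Neurod6, Neurog2, Eomes, Tbr1 and Insm1 were highest in P0-NSC, at 11.4 to 473 times their mean level in P56-NSC. Dlx1 was about as high in P56-NSC as in P0-NSC and at an intermediate level in A-iSC. Dlx2 lay between 5.80 and 13.9 FPKM in all 12 libraries. In A-iSC against AST, 3 of 9 members rose (Dlx1, Insm1 and Neurog2) and 0 fell, beside 28.1% higher and 30.8% lower among all 15747 genes tested (58.9% called, at a limma adjusted p below 0.05 as in all calls here).

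**Figure D1:**
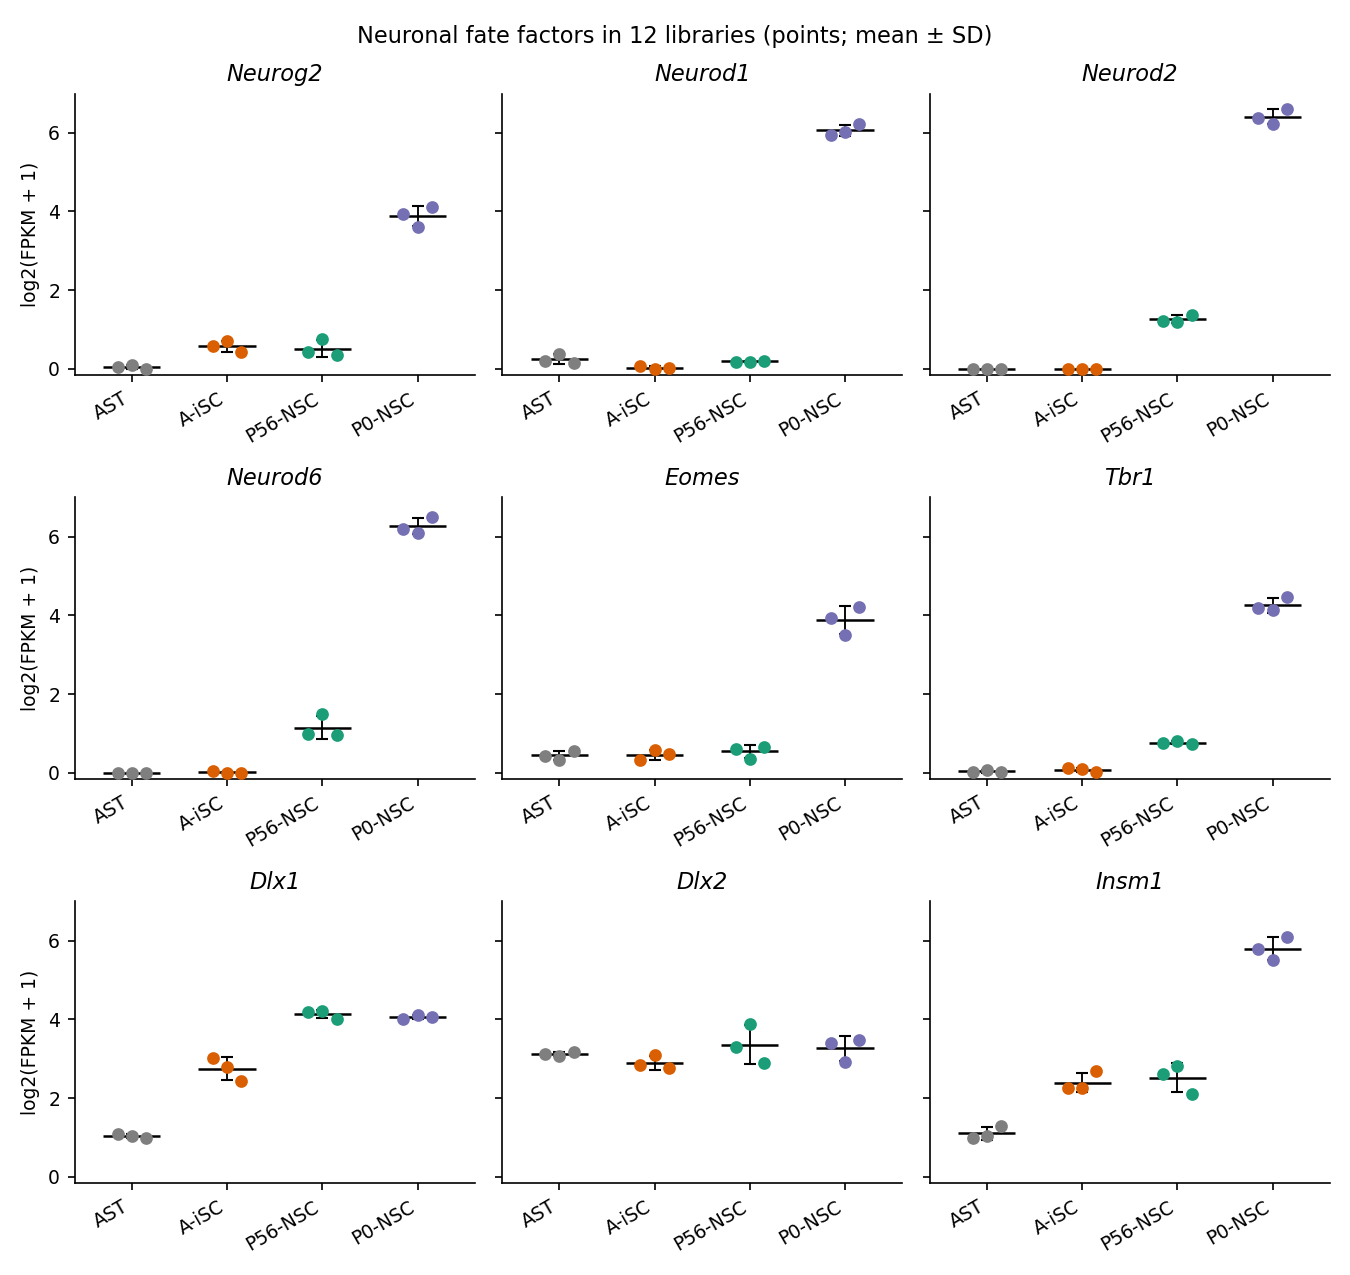
Level of each of the 9 genes as log2(FPKM + 1) on the vertical axis, by group on the horizontal axis. Points are libraries, lines are means and bars are SD (n = 3). The 3 NeuroD genes reach 60.2 to 96.8 FPKM in P0-NSC and at most 1.80 FPKM elsewhere, while Dlx2 stays between 5.80 and 13.9 FPKM.

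In P56-NSC against AST, 6 of 9 members were higher and 0 lower, beside 37.1% and 37% of all genes tested (74.1% called). In P0-NSC against AST, 8 of 9 were higher and 0 lower, beside 35.9% and 38.3% (74.2% called). In A-iSC, 4 of 9 were lower and 0 higher than in P56-NSC, beside 31.3% and 31.5% (62.9% called), and 8 of 9 lower and 0 higher than in P0-NSC, beside 34.7% and 32.6% (67.3% called). In P56-NSC, 7 of 9 were lower and 0 higher than in P0-NSC, beside 33.9% and 35.3% (69.2% called). All 9 members passed the filter of 1 FPKM in at least 3 libraries, but 5 of them (Neurog2, Neurod1, Neurod6, Eomes and Tbr1) did so only with the P0-NSC libraries and so had to differ there, and for P0-NSC the counts, and the values of these 5 genes, are a description only. The median log2 change of the 9 members was 0.02 in A-iSC, 0.73 in P56-NSC and 4.23 in P0-NSC against AST, beside 0.00, -0.00 and -0.04 over all genes tested. These 3 comparisons share the AST libraries.

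**Figure D2:**
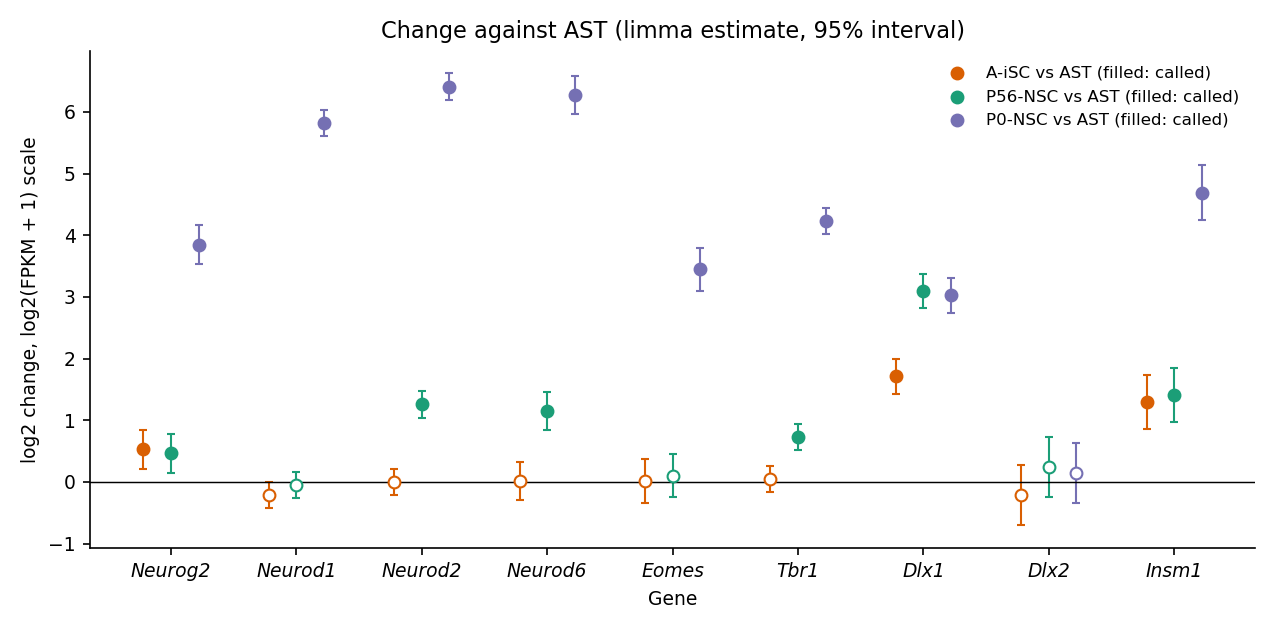
Log2 change of each gene against AST on the log2(FPKM + 1) scale, with its 95% interval from limma, for A-iSC, P56-NSC and P0-NSC. Filled points passed an adjusted p of 0.05 and open points did not. Only Dlx1, Insm1 and Neurog2 are filled in A-iSC, and Dlx2 is open in all 3 comparisons.

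The NeuroD genes encode bHLH factors that drive neuronal differentiation and maturation. Neurod2 (ENSMUSG00000038255, chromosome 11: 98325415 to 98329648, minus strand, build GRCm38) was at 82.1, 74.2 and 96.8 FPKM in P0-NSC and at 1.32, 1.29 and 1.58 FPKM in P56-NSC. No read fell on it in any AST or A-iSC library, which allows a level of up to 0.0172 FPKM in AST and 0.0135 FPKM in A-iSC (3 reads over the group, counting error only). The 4 groups thus fell into 3 separate levels. P0-NSC was 60.4-fold above P56-NSC (log2 change of P56-NSC against P0-NSC -5.15 ± 0.10, SE, limma adjusted p = 3.07e-12). P56-NSC was at least 81.4-fold higher than AST and at least 104-fold higher than A-iSC, taking 3 reads over each group as the floor, and was called against each (limma adjusted p = 2.13e-07 and 3.54e-07).

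Neurod6 (ENSMUSG00000037984, chromosome 6: 55677822 to 55681263, minus strand), a marker of young cortical pyramidal neurons, had the same order. It was at 72.5, 67.9 and 89.7 FPKM in P0-NSC and at 0.965, 1.80 and 0.960 FPKM in P56-NSC. A single read in A-iSC 1 was the only one in the 6 AST and A-iSC libraries. P0-NSC was 61.8-fold above P56-NSC, and P56-NSC was above A-iSC by 187-fold in pooled reads (exact 95% counting interval 33.0 to 7449; limma adjusted p = 2.02e-05). The P56-NSC libraries did not overlap with those of any other group for either gene.

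Neurod1 (ENSMUSG00000034701, chromosome 2: 79452521 to 79456751, minus strand) acts early in neuronal differentiation and also in the pancreas. It stood at 60.2, 64.3 and 73.8 FPKM in P0-NSC but, unlike Neurod2 and Neurod6, at only 0.127, 0.137 and 0.156 FPKM in P56-NSC, or 6 to 7 reads per library. The 3 AST libraries had 0.153, 0.307 and 0.0987 FPKM (7, 17 and 5 reads) and the A-iSC libraries 0.0545, 0 and 0.0137 FPKM (3, 0 and 1 reads). AST and P56-NSC overlapped (log2 change -0.05, 95% interval -0.26 to 0.16, limma adjusted p = 0.627), although quantile normalization called P56-NSC lower (-0.37, limma adjusted p = 0.00409). Every A-iSC library lay below every AST library, a difference that did not pass the test (log2 change -0.21 ± 0.10, limma adjusted p = 0.0803) and that passed in 5 of 21 alternatives, among them a voom fit on reads (limma adjusted p = 0.00228). Cerkl, a gene on the same strand that overlaps Neurod1, had 2 to 7 reads in AST and A-iSC libraries, 31 to 33 in P0-NSC and 16 to 19 in P56-NSC, where it had more than Neurod1 itself, and reads of the overlap cannot be told apart.

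P0-NSC was 473-fold above P56-NSC for Neurod1, and 60.4- and 61.8-fold for Neurod2 and Neurod6. Promoter sequences from RefSeq (build GRCm38.p6) were found for 8 of the 9 members. Those of the 3 NeuroD genes, which were all highest in P0-NSC, are shown beside that of Dlx2, which was level, with only bases outside annotated exons, up to 250 before the start site, and on the gene's strand. Capitals mark CAGATG and CATATG, E-box letters known to be bound by factors of this class, searched on both strands.
Neurod1, chr2:79456786-79456886: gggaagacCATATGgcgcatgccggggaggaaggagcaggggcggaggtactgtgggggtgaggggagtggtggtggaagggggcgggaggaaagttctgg
Neurod2, chr11:98329649-98329895: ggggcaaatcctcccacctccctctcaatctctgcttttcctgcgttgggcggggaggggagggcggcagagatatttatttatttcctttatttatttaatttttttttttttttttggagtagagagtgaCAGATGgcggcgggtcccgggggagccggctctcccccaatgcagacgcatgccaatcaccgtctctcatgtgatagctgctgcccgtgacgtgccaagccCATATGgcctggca
Neurod6, chr6:55681264-55681513: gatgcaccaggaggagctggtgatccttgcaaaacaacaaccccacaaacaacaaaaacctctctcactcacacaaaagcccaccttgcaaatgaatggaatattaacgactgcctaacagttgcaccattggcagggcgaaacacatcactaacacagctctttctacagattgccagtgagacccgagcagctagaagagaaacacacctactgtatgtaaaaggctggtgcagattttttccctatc
Dlx2, chr2:71546755-71547004: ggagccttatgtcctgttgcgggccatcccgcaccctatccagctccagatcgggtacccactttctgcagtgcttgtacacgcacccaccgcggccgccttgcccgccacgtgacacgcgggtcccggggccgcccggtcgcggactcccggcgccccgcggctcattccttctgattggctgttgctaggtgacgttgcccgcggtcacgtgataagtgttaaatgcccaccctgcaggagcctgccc
In the 250 bases before the start, CAGATG stood in 1 of 8 members (Neurod2) and in 14.4% of 32851 promoters. CATATG stood in 2 of 8 (Neurod1 and Neurod2) and in 3.46% of promoters, CAGCTG in 0 of 8 and 13.0%, and the homeodomain letters TAATTA in 1 of 8 (Tbr1) and 4.84%. No single site can count under more than 1 of these 4 motifs, and a match is a description of letters only.

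Upstream of the NeuroD genes in the cortical sequence stand Neurog2 and Eomes, and beside them Tbr1. Neurog2 (ENSMUSG00000027967, chromosome 3: 127633135 to 127635631, plus strand), the proneural factor of cortical radial glia, was at 14.3, 11.2 and 16.4 FPKM in P0-NSC. In AST it had 1, 3 and 0 reads (0.0268, 0.0664 and 0 FPKM), and in A-iSC 22, 34 and 21 reads (0.490, 0.642 and 0.352 FPKM). All A-iSC libraries thus lay above all AST libraries, at a level 28.3-fold below that of P0-NSC. The rise from AST to A-iSC was 15.9-fold in mean FPKM (0.0311 ± 0.0334 to 0.495 ± 0.145, SD, n = 3; log2 change 0.53 ± 0.14, SE, limma adjusted p = 0.00726) and was called in 21 of 21 alternatives (limma adjusted p = 8.73e-05 to 0.0323). With only 4 reads over the AST group, the size of this fold is loose, and without AST 2 it was 36.9-fold. P56-NSC, at 0.336, 0.699 and 0.273 FPKM, overlapped with A-iSC (log2 change of A-iSC against P56-NSC 0.06, 95% interval -0.25 to 0.38, limma adjusted p = 0.714). P56-NSC was also above AST (limma adjusted p = 0.0113), a call that ended without P56-NSC 2 (0.0546) and under quantile normalization (0.218).

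Eomes (ENSMUSG00000032446, chromosome 9: 118478212 to 118486132, plus strand), the T-box factor of intermediate progenitors, was at 14.4, 10.3 and 17.6 FPKM in P0-NSC. Elsewhere it was at 0.251 to 0.584 FPKM in all 9 libraries, with overlap between AST, A-iSC and P56-NSC. The log2 change of A-iSC against AST was 0.02 (95% interval -0.34 to 0.37, limma adjusted p = 0.945), and P0-NSC was 30.3-fold above P56-NSC. Gm33460, a predicted gene that overlaps Eomes on the other strand, had at most 6 reads in any library, and the library kit does not mark strand.

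Tbr1 (ENSMUSG00000035033, chromosome 2: 61802930 to 61814114, plus strand), a T-box factor of deep-layer cortical neurons, stood at 17.1, 16.5 and 21.3 FPKM in P0-NSC and 0.704, 0.761 and 0.653 FPKM in P56-NSC. In AST it had 1, 6 and 1 reads and in A-iSC 10, 8 and 2 reads (means 0.0249 ± 0.0252 and 0.0551 ± 0.0388 FPKM), and these groups overlapped (limma adjusted p = 0.739). P56-NSC was 12.8-fold above A-iSC in mean FPKM (log2 change of A-iSC against P56-NSC -0.69 ± 0.10, limma adjusted p = 5.17e-05). As for Neurod2 and Neurod6, every P56-NSC library lay above every AST and A-iSC library, whereas for Neurog2 and Eomes the A-iSC and P56-NSC libraries overlapped.

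**Figure D3:**
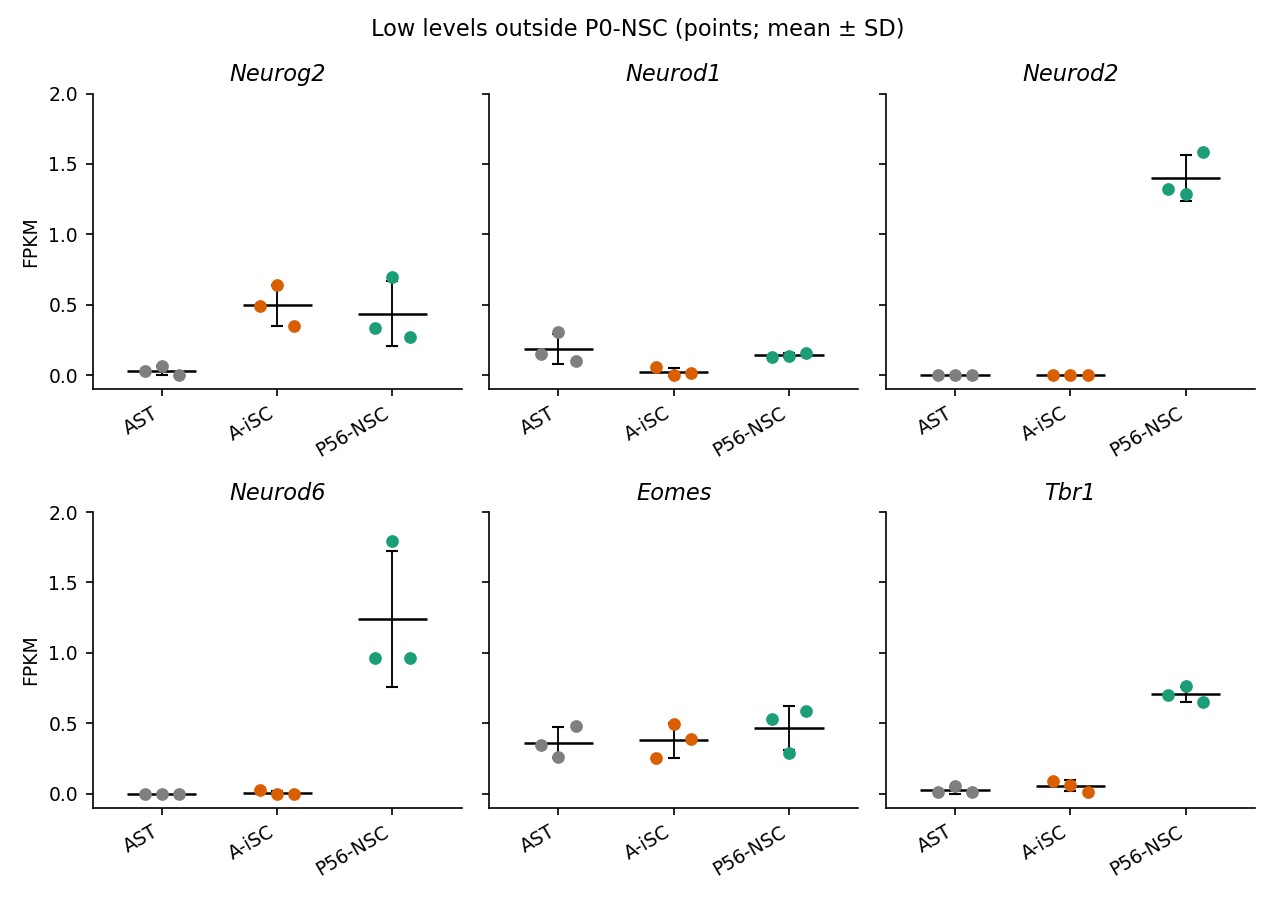
FPKM of the 6 genes in AST, A-iSC and P56-NSC on a linear axis from 0 to 2, which leaves out P0-NSC. Points are libraries, lines are means and bars are SD (n = 3). Neurod2, Neurod6 and Tbr1 stand apart in P56-NSC, Neurog2 is above AST in A-iSC and in P56-NSC, and the 3 groups overlap for Eomes.

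Insm1 (ENSMUSG00000068154, chromosome 2: 146221921 to 146225020, plus strand), a zinc finger factor of basal progenitors and neuroendocrine cells, rose in A-iSC from a low but well-counted level. It was at 0.981, 1.05 and 1.46 FPKM in AST (51 to 84 reads) and at 3.75, 3.81 and 5.40 FPKM in A-iSC (234 to 449 reads). The groups did not overlap, and the mean went from 1.16 ± 0.258 to 4.32 ± 0.938 FPKM, or 3.71-fold (log2 change 1.29 ± 0.20, limma adjusted p = 0.000163). P56-NSC, at 5.13, 6.11 and 3.31 FPKM, overlapped with A-iSC (log2 change of A-iSC against P56-NSC -0.12, 95% interval -0.56 to 0.32, limma adjusted p = 0.623). P0-NSC, at 54.7, 44.4 and 67.1 FPKM, was 12.8-fold above A-iSC and 11.4-fold above P56-NSC (limma adjusted p = 2.59e-08 and 3.80e-08). Within P0-NSC, library 2 was the lowest of the 3 for Insm1, Neurog2, Eomes, Tbr1, Neurod2 and Neurod6, and library 3 was the highest for each of these.

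Dlx1 and Dlx2 are neighbours on chromosome 2 that face each other, with 9426 bases between their 3′ ends. Dlx1 (ENSMUSG00000041911, 71528113 to 71533981, plus strand) was at 1.14, 1.06 and 0.968 FPKM in AST and at 7.10, 5.97 and 4.41 FPKM in A-iSC. Dlx2 (ENSMUSG00000023391, 71543408 to 71546754, minus strand) was at 7.69, 7.36 and 8.05 FPKM in AST and at 6.17, 7.59 and 5.80 FPKM in A-iSC. So Dlx1 rose 5.52-fold in mean FPKM with no overlap (log2 change 1.71 ± 0.13, limma adjusted p = 3.49e-07), while the libraries overlapped for Dlx2 (log2 change -0.22, 95% interval -0.70 to 0.27, limma adjusted p = 0.427). The call for Dlx1 held in 21 of 21 alternatives, and none of the 21 called Dlx2 in this comparison.

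Dlx1 was higher again in the brain-derived cells, at 17.2, 17.5 and 15.2 FPKM in P56-NSC and 15.1, 16.3 and 15.9 FPKM in P0-NSC. A-iSC lay below each of these groups without overlap (log2 change -1.38 ± 0.13 against P56-NSC and -1.31 ± 0.13 against P0-NSC, limma adjusted p = 1.50e-06 and 2.15e-06). P56-NSC and P0-NSC overlapped for Dlx1 (log2 change 0.07, 95% interval -0.21 to 0.35, limma adjusted p = 0.642). Scaled by total reads, P56-NSC was lower than P0-NSC by that measure (log2 change -0.52, limma adjusted p = 0.00249), a scaling that moved the median of all genes to -0.45 in this comparison. Dlx2 was at 8.88, 13.9 and 6.40 FPKM in P56-NSC and 9.65, 6.51 and 10.1 FPKM in P0-NSC, was called in 0 of the 6 comparisons, and had no group apart from the rest. Without P56-NSC 3 it was called lower in A-iSC than in P56-NSC (log2 change -0.70, limma adjusted p = 0.0125).

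The ratio of Dlx1 to Dlx2, taken per length from the FPKM values within each library, was 0.148, 0.144 and 0.12 in AST. The A-iSC libraries had 1.15, 0.787 and 0.760, those of P56-NSC 1.93, 1.26 and 2.37, and those of P0-NSC 1.56, 2.51 and 1.57. Each AST library thus held less Dlx1 than Dlx2, and each P56-NSC and P0-NSC library more. The log2 ratio was 2.69 higher in A-iSC than in AST, and 1.02 and 1.05 lower in A-iSC than in P56-NSC and P0-NSC, each with an exact two-sided permutation p = 0.1, the smallest that 3 against 3 libraries allow (0.12 after Benjamini-Hochberg adjustment over 6 comparisons). P56-NSC and P0-NSC overlapped in this ratio (exact permutation p = 0.9). Dlx1as, a long noncoding RNA on the other strand across Dlx1, had 16 to 17 reads in A-iSC against 638 to 772 for Dlx1, and 5 to 10 in AST against 97 to 116, with 32 to 54 in P56-NSC and 82 to 185 in P0-NSC. Reads of the overlap cannot be assigned to a strand.

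**Figure D4:**
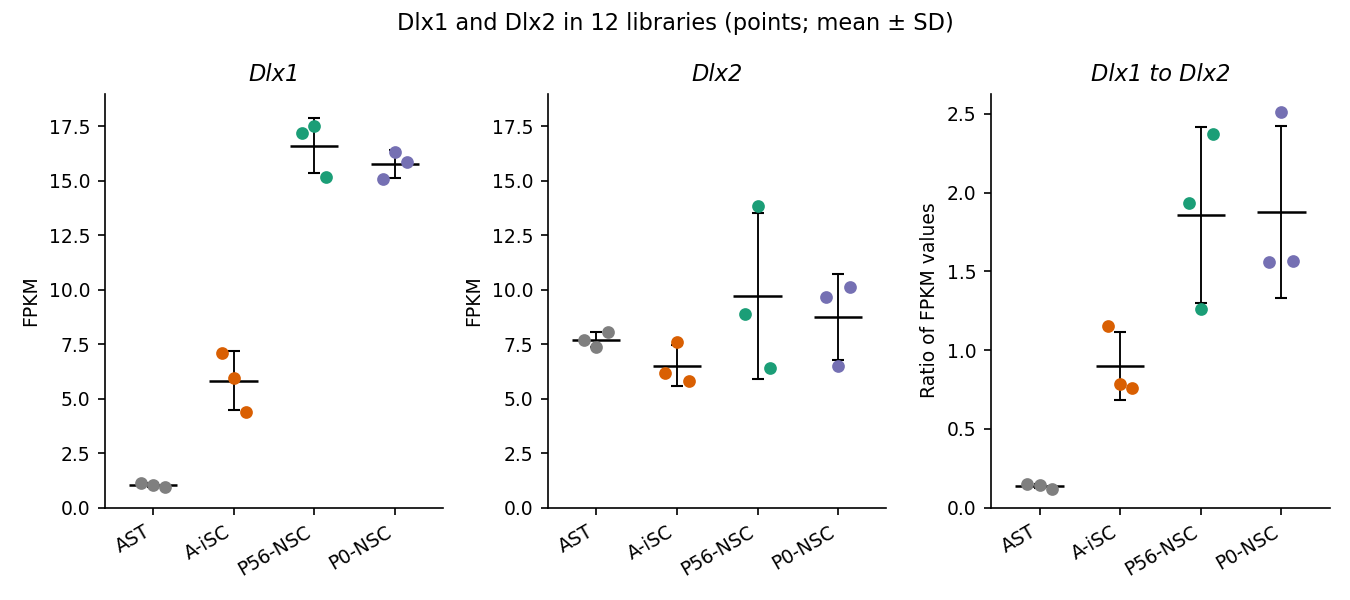
FPKM of Dlx1 and Dlx2 and the ratio of their FPKM values by group, on linear axes from 0. Points are libraries, lines are means and bars are SD (n = 3). The ratio is 0.12 to 0.148 in AST, 0.760 to 1.15 in A-iSC and 1.26 to 2.51 in the brain-derived groups.

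Other genes of these pathways were counted in 6 lists. In A-iSC against AST, 28.1% of all genes tested were called higher. The share was 30% of proneural bHLH factors and partners, 28.6% of the repressor list and 26.7% of mature neuron genes, all near that background. It was 56% in the cortical excitatory list, 61.9% in the inhibitory list and 62.1% in the neuroblast list. In P56-NSC the shares were 40%, 28.6% and 86.7% for the first 3 lists and 68%, 76.2% and 75.9% for the others, beside 37.1% of all genes. In P0-NSC they were 80%, 42.9% and 86.7%, and 84%, 81% and 89.7%, beside 35.9%. Some listed genes passed the filter only through brain-derived libraries and so had to differ there, as Neurod4, Nhlh1 and Nhlh2 did through P0-NSC. The lists were also chosen with earlier results of these data known. List shares and counts for P56-NSC and P0-NSC, here and below, are therefore a description only. Of 10 measured proneural bHLH factors and partners, 3 rose and 1 fell in A-iSC against AST, 4 were higher and 1 lower in P56-NSC, and 8 were higher and 2 lower in P0-NSC. Their median log2 changes were 0.29, 0.15 and 1.30. The list also holds Olig1, Olig2 and the E proteins Tcf3, Tcf4 and Tcf12. Olig2 and Tcf4 were among its risers in A-iSC. Olig1, Olig2 and Tcf4 were among those higher in P56-NSC, where Olig1 was at 343 ± 8.88 FPKM. Nhlh2, a bHLH factor of young neurons, was at 10.6 ± 2.34 FPKM in P0-NSC and had no read in AST or A-iSC, and Bhlhe22, a factor of cortical and spinal neurons, went from 2.63 ± 0.202 in AST to 0.178 ± 0.0403 FPKM in A-iSC and stood at 34.5 ± 2.12 in P0-NSC.

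Among 14 genes of the repressor list, 4 rose and 3 fell in A-iSC against AST, 4 were higher and 6 lower in P56-NSC, and 6 were higher and 6 lower in P0-NSC (median log2 changes 0.07, -0.41 and 0.07). The list also holds Hes6, Notch1, Notch2 and Rbpj, so these counts are not of repressors alone. The 4 risers in A-iSC were Hes5, Hes6, Id2 and Notch2. Hes5 and Hes1, both targets of Notch signalling, moved in opposite directions. Hes5 was at 0.463 ± 0.199 FPKM in AST, 7.88 ± 1.95 in A-iSC, 19.8 ± 4.39 in P56-NSC and 15.9 ± 2.66 in P0-NSC, and Hes1 at 55.97 ± 12.3, 11.2 ± 4.25, 7.65 ± 0.248 and 6.71 ± 0.350 FPKM, and each was called in all 3 comparisons with AST. Id1, an inhibitor that binds E proteins, was at 336 ± 83.4 FPKM in AST, 183 ± 49.4 in A-iSC, 14.0 ± 0.440 in P56-NSC and 65.4 ± 5.24 in P0-NSC, and was called lower than AST each time. Id3 was at 279 ± 48.7 and 224 ± 38.2 FPKM in AST and A-iSC (limma adjusted p = 0.132). Rest, which silences neuronal genes outside neurons, fell by 0.43 ± 0.09 on the log2 scale in A-iSC (8.38 ± 0.249 to 5.95 ± 0.396 FPKM, limma adjusted p = 0.00138).

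The list of the cortical excitatory lineage had 25 measured genes, of which 14 rose and 5 fell in A-iSC, 17 were higher and 4 lower in P56-NSC and 21 were higher and 2 lower in P0-NSC (median log2 changes 0.47, 0.98 and 1.44). Fezf2, a factor of deep-layer projection neurons, went from 0.673 ± 0.129 in AST to 5.57 ± 1.17 FPKM in A-iSC (log2 change 1.96 ± 0.13, limma adjusted p = 1.28e-07), 6.29 ± 0.476 in P56-NSC and 17.9 ± 1.37 in P0-NSC. Emx1, which marks the dorsal telencephalon, was at 33.1 ± 4.21 FPKM in P0-NSC, 2.29 ± 0.591 in P56-NSC, 1.49 ± 0.401 in A-iSC and 0.244 ± 0.0512 in AST. Pax6, a factor of radial glia that acts above Neurog2, was at 3.59 ± 0.129 FPKM in AST and 4.13 ± 0.533 in A-iSC (limma adjusted p = 0.168), lower than AST in P56-NSC (2.76 ± 0.154, limma adjusted p = 0.0133) and higher in P0-NSC (4.64 ± 0.312, limma adjusted p = 0.0116). Slc17a7, a vesicular glutamate transporter, had 7 reads in AST and 3 in A-iSC over each group, against 10.3 ± 0.940 FPKM in P56-NSC.

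In the inhibitory neuron lineage 13 of 21 measured genes rose and 3 fell in A-iSC, 16 were higher and 3 lower in P56-NSC, and 17 were higher and 2 lower in P0-NSC (median log2 changes 0.47, 1.58 and 0.99). The Dlx relatives Dlx5 and Dlx6, singled out after their values were seen, rose in A-iSC, as Dlx1 did. Dlx5 went from 0.376 ± 0.109 to 2.04 ± 1.21 FPKM (limma adjusted p = 0.00301) and Dlx6 from 0.0575 ± 0.0581 to 0.467 ± 0.174 FPKM (limma adjusted p = 0.0012). Gad1, the enzyme that makes GABA, rose from 0.172 ± 0.0434 to 1.71 ± 0.688 FPKM (limma adjusted p = 0.00012) and was at 16.2 ± 0.277 FPKM in P56-NSC and 5.06 ± 1.28 in P0-NSC. Lhx6, a factor of interneurons from the medial ganglionic eminence, was at 0.250 ± 0.0333 FPKM in AST, 0.0213 ± 0.00841 in A-iSC and 13.0 ± 1.48 in P0-NSC.

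Of 29 measured neuroblast and early neuron genes, 18 rose and 4 fell in A-iSC, 22 were higher and 5 lower in P56-NSC, and 26 were higher and 3 lower in P0-NSC (median log2 changes 0.81, 1.72 and 2.99). Dcx, the microtubule protein of migrating neuroblasts, was at 0.0833 ± 0.0245 FPKM in AST, 2.86 ± 0.185 in A-iSC, 3.34 ± 0.398 in P56-NSC and 88.1 ± 6.73 in P0-NSC. Stmn2 went the other way, from 53.8 ± 11.2 FPKM in AST to 7.16 ± 1.65 in A-iSC (limma adjusted p = 8.70e-08). Tubb3 was at 40.7 ± 9.21 and 37.8 ± 9.68 FPKM in these groups (limma adjusted p = 0.658), and Sox11 and Cd24a were not called there either. Of 15 mature neuron genes, 4 rose and 3 fell in A-iSC, and 13 were higher and 1 lower in each brain-derived group (median log2 changes 0.03, 2.86 and 2.11). Between those groups, 20 of 29 neuroblast genes were lower and 7 higher in P56-NSC than in P0-NSC, and 3 of 15 mature neuron genes lower and 9 higher. Of all genes tested, 33.9% were lower and 35.3% higher there. In A-iSC, 15 of the 15 mature neuron genes were lower than in P56-NSC, beside 31.3% of all genes, and 14 lower than in P0-NSC, beside 34.7%. Camk2a, a kinase of mature excitatory neurons, was at 391 ± 24.5 FPKM in P56-NSC and 6.40 ± 2.49 in P0-NSC.

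**Figure D5:**
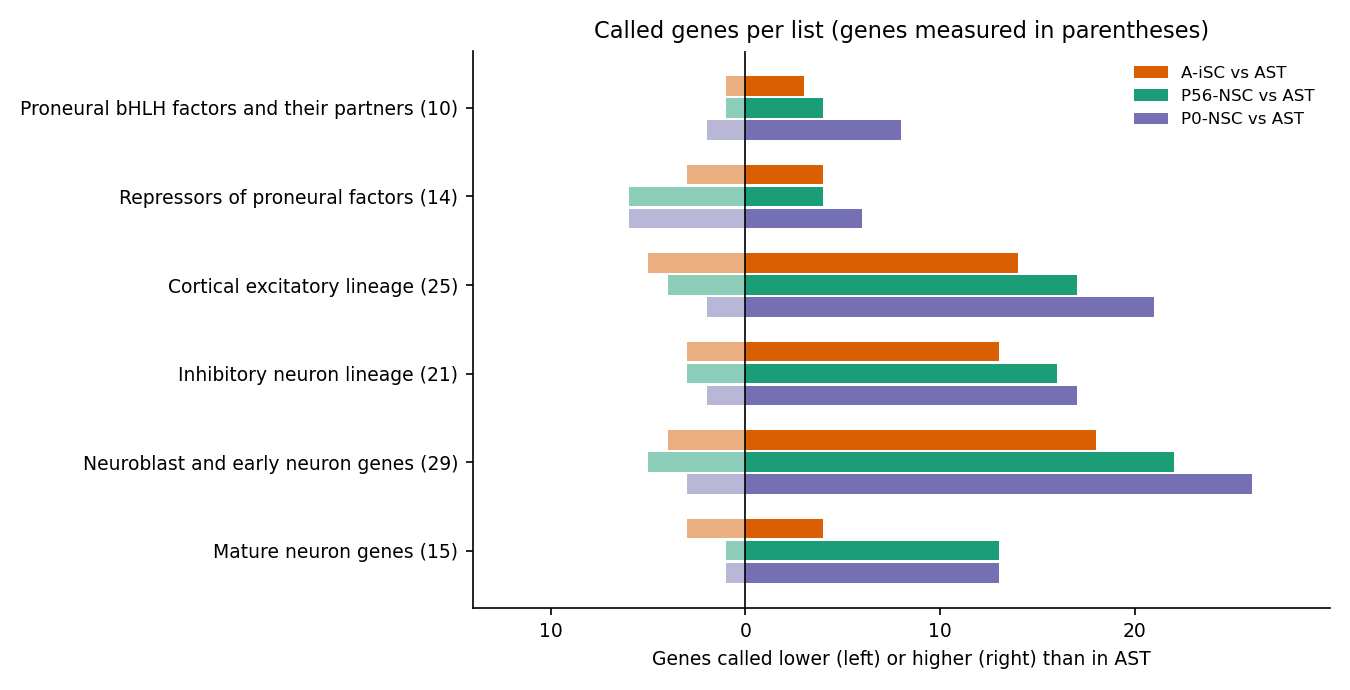
Number of genes called higher (right) or lower (left, pale) than in AST in 6 lists, with the genes measured in parentheses, for A-iSC, P56-NSC and P0-NSC. Of 15 mature neuron genes 4 were called higher in A-iSC and 13 in each brain-derived group.

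The genes most like each member were ranked by Pearson's r of log2(FPKM + 1) over the 12 libraries, among 9563 genes with at least 5 FPKM in a group. These values describe 4 groups of libraries rather than independent points, and for most members they follow the step between P0-NSC and the rest. Tbr1, Neurod2 and Neurod6 were the nearest to one another (r = 0.998 to 0.999). Neurod1 was nearest to the laminin gene Lamc3, to Kcp and to the amino acid transporter gene Slc38a5 (0.998 to 0.999), and Eomes to the protease gene Mmp9 and to Nhlh1 and Nhlh2 (0.997 to 0.999). Neurog2 was nearest to Rtn1, Sp5 and Igfbpl1 (0.994 each) and Insm1 to the Wnt inhibitor gene Apcdd1, the REST corepressor gene Rcor2 and Dcx (0.993 to 0.995). Dlx1 was nearest to Rnf208, Tagln3 and B3gat1 (0.994 each), which like it were intermediate in A-iSC, while the nearest genes to Dlx2 (Penk, Ncaph2 and Syndig1l) reached only 0.703 to 0.744.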

How the data were processed

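Libraries were made from 3 µg of total RNA each with a NEBNext Ultra RNA kit (not the directional version), per the labels' protocols. The authors deposited FPKM values for each gene in a single table with a column for each of 12 libraries. The submitters' processing notes name Bowtie 0.12.2 with mm8 and mm9 as builds; the table's coordinates are those of GRCm38, since 99.5% of identifiers shared with GENCODE M21 had the same position. Counting tool and scaling between libraries are not given in the sources used here. Multiplied by gene length and divided by the library's step, 100% of values came out as whole numbers of reads to within 0.01. The 441 unnamed entries held 0.0957% to 0.156% of reads and stayed out.

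Values were tested as log2(FPKM + 1) with limma 3.58.1 (R 4.3.3) in 1 fit of all 12 libraries with 4 group means, over the 15747 genes that reached 1 FPKM in 3 or more libraries, with Benjamini-Hochberg adjustment. A pseudocount of 1 understates fold changes of low genes. Log2 changes carry standard errors and levels carry SD. Self-tests used simulated data. Named genes are the 9 members, a fixed set of regulators, and at most 4 called genes per list and comparison of largest change, of which some are given. Dlx5, Dlx6 and genes named to show what a list or marker sum holds fall outside this rule. A gene that the rule names is not reported here. The 6 lists cover proneural bHLH factors and partners, repressors with Hes6 and Notch pathway genes, the excitatory and inhibitory lineages, neuroblasts and mature neurons. Members and lists were chosen with earlier results of these data known. Alternatives were 2 pseudocounts, no filter, voom on reads, 2 scalings, fits of 2 groups, a replicate block and libraries left out. Tables and figures used Python 3.11.15, numpy 2.4.6, pandas 2.3.3, scipy 1.17.1 and matplotlib 3.10.9.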

Additional observations from a re-analysis of the deposited data

How the results depend on the processing

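The number of members called was computed under 21 alternatives per comparison. It was 3 to 4 in A-iSC against AST, 5 to 6 in P56-NSC against AST, 8 in P0-NSC against AST, 4 to 5 in A-iSC against P56-NSC, 8 in A-iSC against P0-NSC and 7 to 8 in P56-NSC against P0-NSC. Leaving out 1 library gave 3, 5 to 6, 8, 4 to 5, 8 and 7, with the genes tested kept the same. Replicate numbers did not pair the libraries: the correlation of deviations from the group mean was above 0.1 in 3 of 18 same-numbered pairs (-0.39 to 0.44), and 3 of 12 libraries correlated best with their own number. With the replicate number as a block the counts were 3, 6, 8, 4, 8 and 7. Of 1134 log2 changes of members under alternatives, 1101 kept direction and call, 9 gained a call, 2 lost it and 22 turned sign.

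All 22 that turned were uncalled in the report, and 1 of them was called when it turned, Dlx1 in P56-NSC against P0-NSC scaled by total reads (-0.52). In A-iSC against AST, Eomes gave -0.215 under quantile normalization, -0.0378 without AST 2, -0.0454 without A-iSC 2 and -0.0441 without AST 2 and A-iSC 3 (-0.0454 to 0.0838 with 1 library left out), and Tbr1 gave -0.0529 under quantile normalization. In P56-NSC against AST, Dlx2 gave -0.0624 scaled by total reads and -0.0242 to 0.478 with 1 library left out, Eomes -0.331 under quantile normalization, and Neurod1 0.0181 without AST 2, alone or together with A-iSC 3 (-0.107 to 0.0181 with 1 left out). In A-iSC against P56-NSC, scaling by total reads gave 0.0713 for Eomes, 0.0348 for Dlx2 and 0.330 for Insm1, and quantile normalization 0.117 for Eomes. There, with 1 library left out, Neurog2 gave -0.0163 to 0.192 and Insm1 -0.325 to 0.0357. In P56-NSC against P0-NSC, Dlx2 gave -0.469 scaled by total reads and -0.169 to 0.333 with 1 library left out, and Dlx1 -0.0562 under quantile normalization. The cause was not tested.

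Scaling by total reads moved the median log2 change of all genes to 0.12, -0.24, 0.16, 0.44, -0.07 and -0.45 in the 6 comparisons, and the higher share among called genes from 47.7% to 61.0%, 50.1% to 38.7%, 48.4% to 58.8%, 50.1% to 73.4%, 48.4% to 45.2% and 51.0% to 27.3%. The list counts given in the report that moved by over 1.5 times are these. In A-iSC against AST, the proneural list higher went from 3 to 6 by total reads and to 5 by quantiles. The repressor list lower there went from 3 to 5 without AST 2 and A-iSC 3. In P56-NSC against AST, the repressor list lower went from 6 to 10 by total reads. The proneural list lower there went from 1 to 2 without AST 2 and A-iSC 3. The mature neuron gene lower there went from 1 to 0 in 7 alternatives. In P0-NSC against AST the proneural list lower went from 2 to 1 by quantiles. In P56-NSC against P0-NSC mature neuron genes lower went from 3 to 6 by total reads. At these depths levels below about 0.1 FPKM rest on few reads.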

Other observations

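A pair of genes of the inhibitory lineage list showed large changes in A-iSC against AST. The forebrain factor Six3 fell from 11.1 ± 0.531 FPKM in AST to 3.95 ± 0.0866 in A-iSC (log2 change -1.29 ± 0.11, limma adjusted p = 1.52e-06). Pvalb, a calcium buffer of some interneurons and of muscle, rose from 0.324 ± 0.0899 to 26.5 ± 3.48 FPKM (limma adjusted p = 9.01e-09) and was at 15.5 ± 5.94 FPKM in P56-NSC and 0.0226 ± 0.0196 in P0-NSC.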
